A study of Mus musculus with 6 samples.

Results

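Purinergic receptors and nucleotidases are the surface proteins with which cells sense and clear extracellular nucleotides. The set described here has 10 genes, chosen by name from the 28162 genes of the deposited table. They are the metabotropic nucleotide receptors P2ry12, P2ry13 and P2ry6, the ATP-gated channels P2rx4 and P2rx7, the ectoenzymes Entpd1 and Nt5e, and the adenosine receptors Adora1, Adora2a and Adora3. All 10 were found in the table, and all 10 passed the filter on low values (at least 10 normalized read counts in at least 3 libraries), as did 17480 genes in all. The choice was made by name and not by any measured difference, but with earlier results of these data known.

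Extracellular ATP is a danger signal released by stressed and dying cells. It opens P2X channels directly, and surface enzymes cut it stepwise to ADP, AMP and adenosine, which act on P2Y receptors and then on adenosine receptors. In the central nervous system microglia carry much of this machinery. P2Y12 is known as a sensor of resting microglia that steers their processes towards injury, P2Y6 as a receptor for uridine nucleotides that prompts phagocytosis, and P2X4 and P2X7 as channels of reactive microglia. Entpd1 (CD39) and Nt5e (CD73) together turn ATP into adenosine.

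The study asked what delivery of NDNF, a secreted neurotrophic factor, does in the cord of mice that model amyotrophic lateral sclerosis. All 6 samples came from mice with SOD1G93A, a human mutant superoxide dismutase transgene, and on postnatal day 74 all had an intrathecal injection of adeno-associated virus (AAV). The virus was AAV-GFP (green fluorescent protein, the control, n = 3 libraries) or AAV-NDNF (n = 3), and ventral lumbar cord was taken on postnatal day 104. Wild-type mice and uninjected mice are not analysed here. For the viral promoter and the sex of the mice, nothing is given in the sources used here. The labels call the 3 libraries of a group biological replicates without naming the animals, so p-values measure the spread between these libraries.

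The reads assigned to genes came to between 15335789 and 20060987 per library. Ndnf stood at 128.0 to 171.4 normalized counts after AAV-GFP and at 5286.0, 7077.1 and 673.7 after AAV-NDNF replicates 1 to 3, so the labels matched the delivered gene, with replicate 3 lowest. Markers of motor neurons, neurons, astrocytes, oligodendrocytes and microglia were all present, and the neutrophil and red blood cell lists summed to at most 42.0 normalized counts in any library. AAV-GFP replicate 2 held fewer dorsal horn transcripts than the other libraries (mean log2 level of 8 genes −2.02 relative to the mean of the 6 libraries, against −0.41 to 0.93). The first principal component ran from that library (40.3) to AAV-NDNF replicate 3 (−52.0). Results that turn on 1 of these libraries are given with and without it. Because the tissue was profiled in bulk, fewer cells of a type and less RNA per cell cannot be told apart in any value below.

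The promoters of 4 genes are shown because their genes are either neighbours with a like result or the ones whose groups separated. P2ry12 and P2ry13 lie next to each other on chromosome 3 (mm10), 5389 bases apart on the minus strand, and both sit inside Med12l, which is read from the plus strand. Entpd1 lies on chromosome 19 and P2rx4 on chromosome 5, where it follows P2rx7 after 16111 bases on the same strand. The windows below, from RefSeq (GRCm38.p6), run from 250 bases before to 50 bases after an annotated start site, 5′ to 3′ on the gene's strand. They cover chr3:59262936-59263235 (minus) for P2ry12, chr3:59210833-59211132 (minus) for P2ry13, chr19:40659520-40659819 (plus) for the second of the 2 Entpd1 start sites, and chr5:122707294-122707593 (plus) for P2rx4. Capitals mark the letters GAGGAA on either strand, the core that the myeloid factor PU.1 (Spi1) is known to bind.
P2ry12: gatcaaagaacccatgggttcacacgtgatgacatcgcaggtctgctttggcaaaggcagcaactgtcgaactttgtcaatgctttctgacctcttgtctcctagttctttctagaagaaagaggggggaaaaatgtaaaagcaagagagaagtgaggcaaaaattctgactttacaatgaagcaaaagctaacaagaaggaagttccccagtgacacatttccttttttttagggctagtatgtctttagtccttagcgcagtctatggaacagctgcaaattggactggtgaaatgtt
P2ry13: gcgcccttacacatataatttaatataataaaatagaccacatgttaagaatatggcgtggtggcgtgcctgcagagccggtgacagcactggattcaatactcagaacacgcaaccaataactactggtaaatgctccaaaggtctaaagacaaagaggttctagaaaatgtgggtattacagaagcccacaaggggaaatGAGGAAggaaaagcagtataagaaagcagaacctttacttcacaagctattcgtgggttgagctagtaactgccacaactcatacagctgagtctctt
Entpd1: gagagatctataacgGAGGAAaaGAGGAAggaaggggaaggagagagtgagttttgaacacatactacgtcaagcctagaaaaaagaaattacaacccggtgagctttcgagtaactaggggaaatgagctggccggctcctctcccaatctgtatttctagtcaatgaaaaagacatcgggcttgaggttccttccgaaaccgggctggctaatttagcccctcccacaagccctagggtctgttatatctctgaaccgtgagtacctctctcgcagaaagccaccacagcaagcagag
P2rx4: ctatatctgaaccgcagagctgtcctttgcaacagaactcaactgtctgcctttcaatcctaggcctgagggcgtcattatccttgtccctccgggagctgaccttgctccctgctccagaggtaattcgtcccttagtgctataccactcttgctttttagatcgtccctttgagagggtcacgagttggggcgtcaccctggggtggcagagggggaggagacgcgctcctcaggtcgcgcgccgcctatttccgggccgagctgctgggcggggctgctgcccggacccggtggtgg
The window of P2ry13 held 1 match, 48 bases before the start site, and the second Entpd1 window held 2, at 235 and 227 bases before it. Those of P2ry12 and P2rx4 held none, as did the first Entpd1 window (chr19:40612116-40612415, plus), whose sequence is not shown. The P2ry12 window lies wholly outside the GENCODE span of the gene (chr3:59216272-59262871), and its last bases match no GENCODE transcript of P2ry12. The 8 genes of the set with a window had 11 windows. Of these 11 windows, 5 held a match (from 4 genes), where 28.3% of all 32851 promoter windows held one. A match describes the letters and is not evidence of binding. P2ry6 and Adora2a are named only.

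Levels of different genes were compared as normalized counts per kb of exon (exon lengths from GENCODE M21). Adora1, the main inhibitory adenosine receptor of neurons, was the most abundant, at 628 ± 61.4 per kb (SD, n = 6 libraries), above 93.0% of the tested genes with a known length. P2ry12 followed at 259.7 ± 36.6 per kb and P2ry13 at 140.0 ± 12.5. Next came 4 genes whose ranges over the 6 libraries each overlapped that of the next gene, Entpd1 (69.8 ± 13.5), P2rx7 (68.2 ± 14.2), P2rx4 (59.0 ± 7.87) and P2ry6 (48.7 ± 8.25). The 3 lowest also overlapped in turn, Adora2a (12.1 ± 1.68), Nt5e (9.68 ± 2.56) and Adora3 (6.20 ± 2.63 per kb). The 6-library ranges of Adora1, P2ry12, P2ry13 and Entpd1 did not overlap one another, nor did those of P2ry6 and Adora2a. Per kb of exon, the resting microglial receptors P2ry12 and P2ry13 thus stood above the reactive-state receptors P2rx4, P2rx7 and P2ry6 in every library. For P2ry13 this order depends on the exon lengths, 2528 bases against 7025 for P2rx4 and 5970 for P2rx7. Before that division the mean counts of P2rx4 were above those of P2ry13 (450.7 against 368.0 after AAV-GFP, 378.8 against 339.7 after AAV-NDNF).

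**Figure D1:**
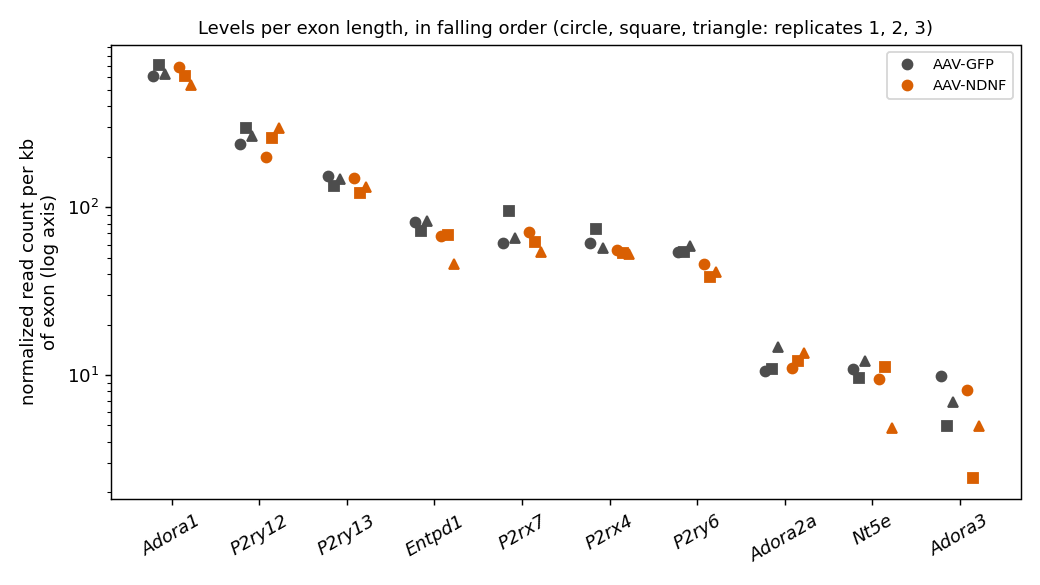
Normalized read count per kb of exon (log axis) for the 10 genes in falling order, 1 point per library, grey for AAV-GFP and orange for AAV-NDNF. Adora1 lies between 535.1 and 703.6 per kb in all 6 libraries and Adora3 between 2.42 and 9.82.

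The main comparison set AAV-NDNF against AAV-GFP 30 days after delivery. No member passed over all genes. The members with the smallest p were the phagocytosis receptor P2ry6, with a mean after AAV-NDNF of 0.748 times the control mean, and the ATP-degrading enzyme Entpd1, at 0.768 times. P2rx4 was at 0.840 times the control mean, while P2ry12 (0.942), P2ry13 (0.923), Adora1 (0.946) and Adora2a (1.02) had overlapping groups.

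The test was limma on log2(normalized count + 1), two-sided, with Benjamini-Hochberg adjustment over all 17480 genes, and log2 fold changes give the AAV-NDNF level less the control level on that scale. It called 0 of the 10 genes and 0 genes in all (0% of those tested), where 818 genes (4.68%) had an unadjusted p under 0.05. edgeR's quasi-likelihood test on the recovered reads also called 0, with 804 genes (4.6%) at an unadjusted p under 0.05. All 10 members had a limma adjusted p of 0.997. At an unadjusted p under 0.05, 2 of the 10 were lower (P2ry6 and Entpd1) and 0 higher, against 3.53% of tested genes lower and 1.15% higher. Leaving out control replicate 1, control replicate 3 or AAV-NDNF replicate 3 brought the 2 genes to 0, and leaving out replicate 2 of either group left 1 (Entpd1). In 3 of the 10, P2ry6, Entpd1 and P2rx4, every AAV-NDNF library lay below every AAV-GFP library, a pattern that 5.5% of tested genes showed. Of the 10, 9 had a fold change below 0, against 49.9% of all genes tested, and the median log2 fold change was −0.23 against 0.00083.

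**Figure D2:**
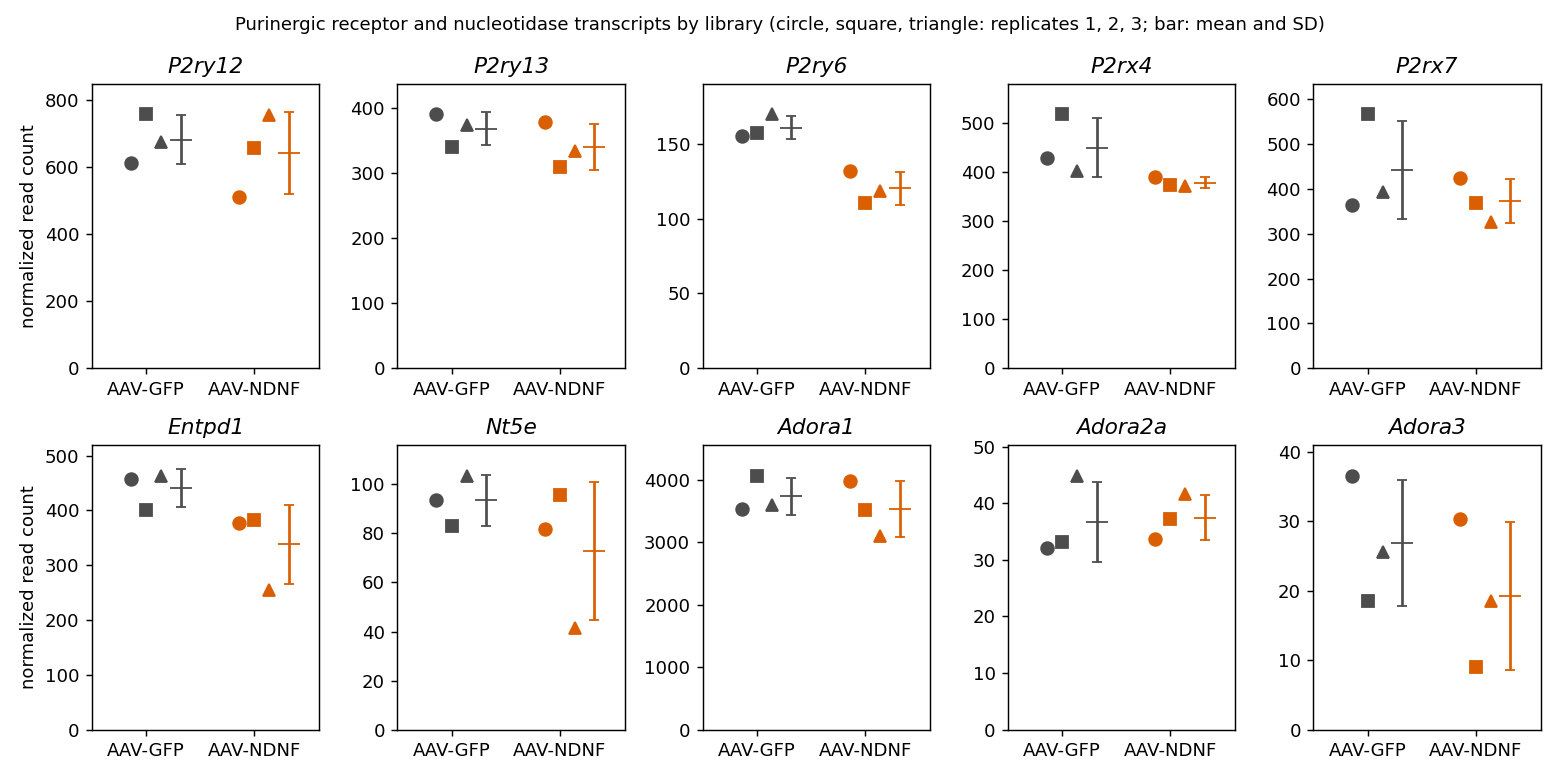
Normalized read counts of each gene in the 3 AAV-GFP (grey) and 3 AAV-NDNF (orange) libraries, with the mean and SD beside them, each axis starting at 0. The 2 groups separate for P2ry6, P2rx4 and Entpd1 and overlap for the other 7 genes.

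Among the P2Y receptors, P2ry12 (chr3:59216272-59262871 in mm10), the ADP receptor of resting microglia, was 610.6, 757.4 and 675.1 normalized counts after AAV-GFP and 511.4, 656.6 and 755.8 after AAV-NDNF. The groups overlapped widely, since the lowest value was AAV-NDNF replicate 1 and AAV-NDNF replicate 3 reached the level of the highest control. The log2 fold change was −0.10 (95% interval −0.44 to 0.24), and without AAV-NDNF replicate 1 it was 0.054. P2ry13 (chr3:59207892-59210882), another ADP receptor, was 390.1, 340.1 and 373.8 against 377.6, 308.6 and 333.0. These groups overlapped as well (log2 fold change −0.12, 95% interval −0.43 to 0.20), and the value was −0.051 without AAV-NDNF replicate 2 and −0.20 without AAV-NDNF replicate 1. Med12l, the gene around both, was 928 ± 95.9 against 873 ± 186, and of the exon bases of P2ry12 and P2ry13 it shares 9 and 0.

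P2ry6 was the member whose groups lay farthest apart relative to their spread. It lies at chr7:100937630-100974649 on the minus strand and was 155.3, 157.3 and 169.8 after AAV-GFP and 132.0, 110.4 and 118.3 after AAV-NDNF, so that all 3 AAV-NDNF libraries were below all 3 controls. The means were 161 ± 7.85 and 120.2 ± 10.97 (SD, n = 3), a log2 fold change of −0.42 (SE 0.18, 95% interval −0.82 to −0.019). The limma p was 0.0417 before and 0.997 after adjustment, and an exact two-sided permutation test over the libraries gave p = 0.1, the smallest that 3 against 3 allow. These values rest on 98 to 174 reads per library. Leaving out any 1 library kept the log2 fold change between −0.49 and −0.36.

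The P2X channels differed less. P2rx4 (chr5:122707544-122729738), an ATP channel of reactive microglia, was 429.4, 518.9 and 403.7 after AAV-GFP and 391.1, 373.9 and 371.3 after AAV-NDNF. The AAV-NDNF libraries were close together and all below the controls, by a narrow margin from AAV-GFP replicate 3. The log2 fold change was −0.24 (95% interval −0.55 to 0.065; exact two-sided permutation p = 0.1), and it was −0.14 without AAV-GFP replicate 2, the highest library. P2rx7 (chr5:122643911-122691432), the low-affinity channel linked to inflammasome activation, was 364.2, 566.8 and 394.1 against 424.7, 369.4 and 325.3. Here AAV-GFP replicate 2 was again the highest and the rest of the libraries overlapped. The log2 fold change of −0.22 (95% interval −0.63 to 0.18) was −0.030 once AAV-GFP replicate 2 was left out and −0.35 when the first control was left out instead.

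Of the ectoenzymes, Entpd1 (chr19:40612366-40741602), which removes phosphates from ATP and ADP, was 457.1, 400.7 and 463.6 after AAV-GFP and 377.6, 381.8 and 255.2 after AAV-NDNF. All AAV-NDNF libraries were below all controls, replicate 3 by far the most. The means were 440.4 ± 34.6 and 338 ± 71.9, a log2 fold change of −0.40 (SE 0.17, 95% interval −0.78 to −0.018). The limma p was 0.0418 before and 0.997 after adjustment, beside an exact two-sided permutation p = 0.1. Without AAV-NDNF replicate 3 the log2 fold change was −0.21. Endothelial cells also carry Entpd1, and the sum of 4 endothelial markers was 3229 to 3645 after AAV-GFP and 2443 to 3423 after AAV-NDNF, with replicate 3 lowest. The part of endothelial content in the Entpd1 difference was not tested.

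Nt5e (chr9:88327197-88372092), which makes adenosine from AMP, was 93.7, 83.1 and 103.6 after AAV-GFP and 81.6, 95.7 and 41.6 after AAV-NDNF. The first 2 AAV-NDNF libraries lay within or near the control range, and replicate 3 was below all others, with 38 reads (exact 95% Poisson interval 26.9 to 52.2, counting error only). The log2 fold change of −0.43 (95% interval −1.12 to 0.26) was −0.074 without AAV-NDNF replicate 3 and −0.67 without AAV-NDNF replicate 2.

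The adenosine receptors showed no separation of the groups. Adora1 (chr1:134199223-134235431, minus strand) was 3535.2, 4070.3 and 3599.6 after AAV-GFP and 3987.4, 3511.5 and 3095.6 after AAV-NDNF. Its groups overlapped, its log2 fold change was −0.086 (95% interval −0.36 to 0.18), and without AAV-NDNF replicate 3 it was 0.0055. None of 5 neuron markers had a fold change below 0 (median 0.17). Mybph on the opposite strand overlaps 1162 exon bases of Adora1 (20.1%) and was 1275 ± 42.0 against 1273 ± 122. The strand setting of the counting is not stated, so reads in that stretch may be counted for either gene.

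Adora2a (chr10:75316877-75334784), the stimulatory receptor best known from the striatum, was 32.1, 33.2 and 44.9 after AAV-GFP and 33.6, 37.2 and 41.6 after AAV-NDNF. The AAV-NDNF values lay inside the control range. The log2 fold change of 0.039 (95% interval −0.65 to 0.72) was below 0 without AAV-GFP replicate 1 (−0.047), AAV-GFP replicate 2 (−0.024) or AAV-NDNF replicate 3 (−0.038). Adora3 (chr3:105870858-105908926), an inhibitory receptor of immune cells and microglia, was 36.6, 18.6 and 25.6 against 30.3, 9.0 and 18.6. It had the lowest level per kb and the widest interval, its lowest value resting on 8 reads (exact 95% Poisson interval 3.45 to 15.8). Its log2 fold change of −0.56 (95% interval −1.65 to 0.54) was −0.12 without AAV-NDNF replicate 2 and −0.94 without AAV-NDNF replicate 1, and 20.9% of its exon bases are shared with Tmigd3 on the same strand. The intervals of P2ry12, P2ry13, P2rx4, P2rx7, Nt5e, Adora2a and Adora3 each hold both 0 and −0.42, the value of P2ry6, so for these genes a difference of that size could not be distinguished from none.

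The authors' deposited table, from DESeq2, gives an adjusted p of 0.99989 for each of the 10 genes, where 54 of 20315 genes (0.266%) pass at 0.05. In the authors' deposited table the smallest unadjusted p among them is that of Entpd1, 0.0503, with a log2 fold change of −0.38, followed by P2ry6, 0.0692, with −0.42.

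Markers of microglia moved with the groups more than most of these receptors did. All 11 resting microglia markers had fold changes below 0, 5 of them with an unadjusted p under 0.05, among them Csf1r and Cx3cr1, and their summed level was 18962 to 19509 normalized counts after AAV-GFP and 13988 to 16070 after AAV-NDNF. Csf1r, the survival receptor of microglia, was 4449.7 ± 119.9 against 3170.3 ± 136.6 (log2 fold change −0.49, limma adjusted p = 0.364), and Cx3cr1, the fractalkine receptor, 2187 ± 11.5 against 1667 ± 142. Of 10 markers of disease-associated microglia, all were below 0 and 8 had an unadjusted p under 0.05. Over all tested genes, 49.9% were below 0 and 3.53% were lower at an unadjusted p under 0.05. No marker of either list passed when adjusted in limma. The 6 border macrophage markers summed to 95.8 to 223 after AAV-GFP and 130.4 to 136 after AAV-NDNF, and the 4 T cell markers to 66.5 to 141 and 56.3 to 75.6. The part of these contents in the receptor differences was not tested.

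The level of P2ry12 was also set against the mean log2 level of the 11 microglia markers in the same library. That difference was −0.78, −0.43 and −0.54 after AAV-GFP and −0.59, −0.23 and −0.24 after AAV-NDNF. AAV-NDNF replicates 2 and 3 were above all controls and replicate 1 was below 2 of them, so the groups overlapped. The mean difference was 0.23 on the log2 scale, or 1.17-fold higher relative to the markers after AAV-NDNF (exact two-sided permutation p = 0.3). Leaving out 1 library gave 0.13 (without AAV-GFP replicate 1) to 0.34 (without AAV-NDNF replicate 1).

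The same subtraction takes the mean marker fold change of −0.32 from the group difference of every gene alike, whatever cells express it, so it is no test of microglial content. On that scale P2ry13 differed by 0.21, P2ry6 by −0.095, P2rx4 by 0.082, P2rx7 by 0.10, Entpd1 by −0.076, Nt5e by −0.11, Adora1 by 0.24, Adora2a by 0.36 and Adora3 by −0.23. P2rx4 relative to P2ry12, a ratio of a reactive-state to a resting-state receptor, was −0.51, −0.54 and −0.74 on the log2 scale after AAV-GFP and −0.39, −0.81 and −1.02 after AAV-NDNF (difference −0.14, exact two-sided permutation p = 0.6). The AAV-NDNF libraries lay on both sides of the controls, and without AAV-NDNF replicate 3 the difference was −0.0011.

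**Figure D3:**
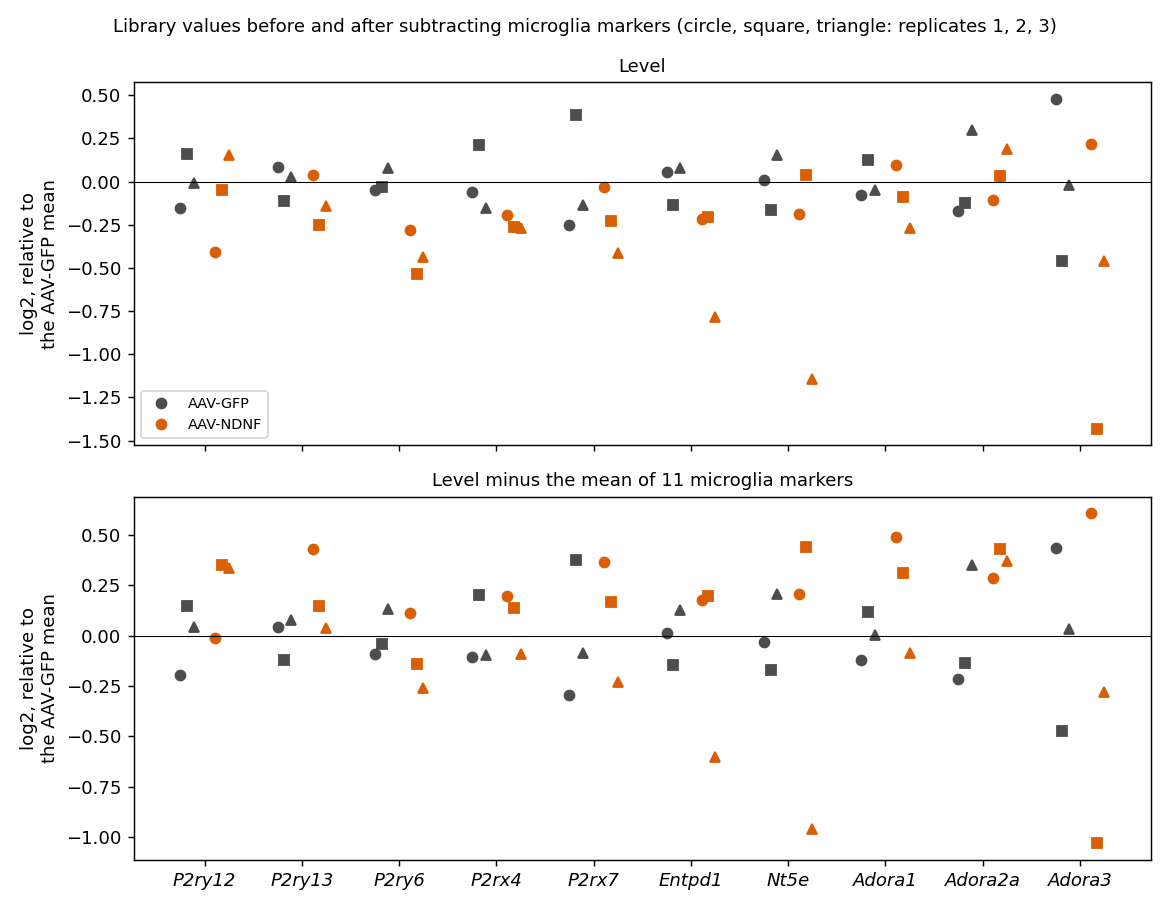
Log2 level of each gene in each library relative to the AAV-GFP mean (top), and the same after subtracting the mean log2 level of 11 microglia markers in that library (bottom); grey AAV-GFP, orange AAV-NDNF. The AAV-NDNF points of P2ry6 lie below all controls in the top panel (mean −0.42). In the bottom panel (mean −0.095) replicate 1 lies among the controls, and replicates 2 and 3 are still below all of them. The group difference of every gene is shifted by the same amount.

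The wider pathway was described from 8 lists holding 56 genes, of which 55 were in the table and 51 were tested, the 10 genes above among them. In limma 2 of those 51 were lower and 2 higher at an unadjusted p under 0.05, against 3.53% and 1.15% of all tested genes. None of the 51 passed when adjusted. The 2 higher genes were both P2Y receptors. P2ry1, a Gq-coupled ADP receptor known from astrocytes and neurons, was 174.1, 203.3 and 202.9 after AAV-GFP and 254.0, 244.4 and 330.8 after AAV-NDNF. All its AAV-NDNF libraries were above all controls, which 4.26% of tested genes showed, and the log2 fold change was 0.50 (SE 0.17). The limma p was 0.0143 before and 0.889 after adjustment, beside an exact two-sided permutation p = 0.1. Its unadjusted p was no longer under 0.05 with AAV-GFP replicate 1 left out (log2 fold change 0.43) or with AAV-NDNF replicate 3 left out (0.37). The 6 astrocyte markers summed to 161841 to 204940 after AAV-GFP and 138398 to 163542 after AAV-NDNF, all with fold changes below 0. Of the 5 neuron markers 0 had a fold change below 0 (median 0.17). The part of these contents in the P2ry1 difference was not tested. P2ry14, a receptor for UDP-sugars that also lies inside Med12l, was 39.3, 16.6 and 19.2 against 36.2, 37.2 and 76.7, with overlapping groups (log2 fold change 0.98, or 0.63 without AAV-NDNF replicate 3; limma p 0.0445 before adjustment, exact two-sided permutation p = 0.3). Among the tested P2Y receptors the median log2 fold change was 0.20, with 3 of 6 below 0.

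Of 5 tested P2X channels 3 were below 0 (median −0.068), with P2rx5 at 232 ± 40.4 against 219.6 ± 19.1, and of 4 adenosine receptors 3 (median −0.069). Of 8 surface nucleotidases 5 were below 0 (median −0.14); Entpd3, a neuronal ATP-degrading enzyme, was 755 ± 67.2 against 833 ± 52.3. Adenosine uptake and metabolism had 6 of 8 below 0 (median −0.062), with the lysosomal nucleoside transporter Slc29a3 at 1258 ± 99.6 against 1079 ± 292 (log2 fold change −0.25, or −0.046 without AAV-NDNF replicate 3), and nucleotide release 5 of 6 (median −0.095), with the astrocyte connexin Gjb6 at 1489 ± 153 against 1309 ± 73.8. None of these list members other than Entpd1 had an unadjusted p under 0.05.

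Of the genes downstream of P2X7 and P2Y12, none had an unadjusted p under 0.05 in limma. In the P2X7 and inflammasome list 6 of 7 fold changes were below 0 (median −0.085), where 49.9% of all genes tested and 11 of 11 microglia markers were. Pycard (ASC), the inflammasome adaptor, was 106.2, 110.4 and 137.8 against 84.9, 84.5 and 88.7, with no overlap (log2 fold change −0.44, exact two-sided permutation p = 0.1). Gsdmd, the pore-forming executor of pyroptosis, was 113 ± 10.7 against 84.6 ± 11.97, also with no overlap. Every AAV-NDNF library lay below every control in 5.5% of tested genes. Casp1 was 101 ± 25.1 against 77.0 ± 8.73, a log2 fold change of −0.36 that was −0.23 without AAV-GFP replicate 1 and −0.58 with AAV-GFP replicate 2 left out. In the P2Y12 signalling list 6 of 7 were below 0 (median −0.16), with the inhibitory G-protein subunits Gnai3 at 990 ± 30.5 against 856 ± 44.4 and Gnai2 at 4503 ± 269 against 4041 ± 177, and the leukocyte kinase subunit Pik3cg at 197 ± 47.5 against 142 ± 45.7. For Gnai3 and Gnai2 too, all AAV-NDNF libraries lay below all controls. The log2 fold change of Pik3cg was −0.49, and it ran from −0.74 without AAV-NDNF replicate 1 to −0.30 without AAV-GFP replicate 3.

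**Figure D4:**
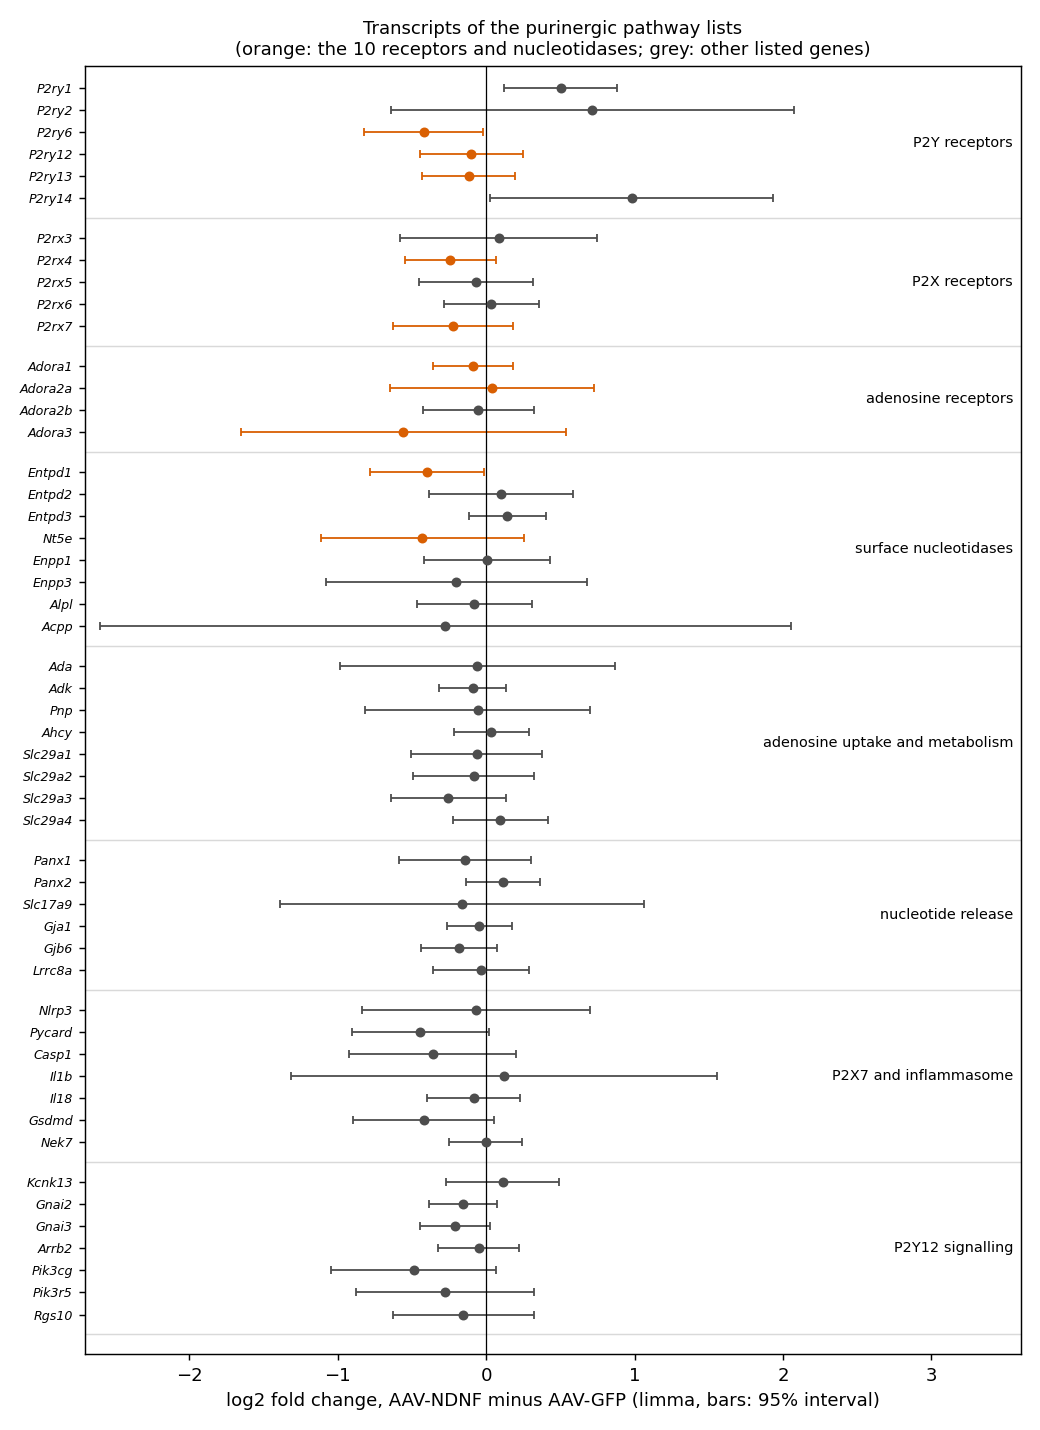
Log2 fold change (AAV-NDNF minus AAV-GFP) with its 95% interval for the 51 tested genes of 8 purinergic lists, orange for the 10 receptors and nucleotidases and grey for the other genes. The intervals of P2ry6 and Entpd1 lie below 0 and those of P2ry1 and P2ry14 above it, before adjustment for the number of genes tested.

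The genes whose log2 level followed a member most closely over the 6 libraries were found among the tested genes with a mean of at least 100 normalized counts (12409 for most members). For P2ry12 they were 1700066M21Rik (Pearson r = 0.99, n = 6 libraries), 1810058I24Rik (0.98) and Pex14 (0.98). For P2rx4 they were Rai14, Asphd1 and Tex261 (each r = 0.99), and for Adora2a they were Obi1 (0.98), Rnf4 (0.97) and Oga (0.97). No microglia marker of the list above was among these 9 genes, but so few genes cannot show whether the members varied with those markers. The share of genes screened with r above 0.9 was 0.814% for P2ry12, 1.38% for P2rx4 and 0.363% for Adora2a. These values are a description of these libraries, which share their depth and tissue composition.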

How the data were processed

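Polyadenylated RNA of 6 ventral lumbar cord samples was sequenced. The tools cutadapt, HISAT2, HTSeq and DESeq2 and the build mm10 come from the submitters' processing notes. Their versions, the annotation and the strand setting: not given in the sources used here. Per the file headers and values, the deposited per-sample columns are a normalized signal: each library's reads per gene over a size factor of that library, as the authors made it. Whole reads were recovered for 100% of values (tolerance 0.001). Log2 fold changes, their standard errors, a Wald score, p-values and adjusted p-values of the authors' own comparison were deposited too.

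Groups and replicate numbers came from the sample titles. The 10 genes, gene lists and tests were chosen with earlier results of these data known. The test was limma (trend and robust options) on log2(normalized count + 1). It covered the 17480 of 28162 genes that reached 10 normalized counts in 3 or more libraries, called at a Benjamini-Hochberg adjusted p under 0.05. edgeR, DESeq2 and limma-voom on recovered reads, other scalings, filters and pseudocounts, a replicate block, a dorsal horn covariate and leaving out each library were alternatives. Named genes are the 10, Ndnf, at most 4 genes per pathway list, by smallest p, microglia markers (1 of them is not reported here by name), the 3 genes most alike in pattern for P2ry12, P2rx4 and Adora2a, and overlapping genes; Slc28a2, P2rx6 and Kcnk13 fall outside this rule and were added after their values were seen. Exon lengths came from GENCODE M21, which held 98.1% of the symbols, and promoters from RefSeq (GRCm38.p6). The scripts were tested on simulated counts. No 2 libraries of a group agreed within counting noise. Versions were DESeq2 1.42.0, edgeR 4.0.16 and limma 3.58.1 under R 4.3.3, with Python 3.11.15 and matplotlib 3.10.9 for figures.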

Additional observations from a re-analysis of the deposited data

How the results depend on the processing

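The number of genes called over the whole table was 0 in limma and 0 in edgeR, and 3 with no filter on low values, 55 with DESeq2, 167 with limma-voom and quality weights, 10 with the dorsal horn covariate, and 0 to 43 when 1 library was left out (43 without AAV-GFP replicate 2, 11 without AAV-NDNF replicate 3). None of the 10 genes was among those called under any setting (smallest adjusted p 0.223, P2ry6 in limma-voom). The number of the 10 with an unadjusted p under 0.05 was 2 in the reported fit, 0 with upper-quartile scaling, 1 with no filter, 1 with DESeq2, 3 with limma-voom and 0 to 2 when 1 library was left out. The third in limma-voom was Adora3, at a log2 fold change of −1.25 against −0.56. That setting also moved P2rx7 from −0.22 to −0.065, Nt5e from −0.43 to −0.19, P2ry13 from −0.12 to −0.23, P2ry12 from −0.10 to −0.024, Adora1 from −0.086 to −0.033 and P2ry14 from 0.98 to 0.47. The cause of these shifts was not tested. P2ry6 had a log2 fold change below 0 in all 17 alternatives and an unadjusted p under 0.05 in 8 of them, Entpd1 in all 17 and in 13. The direction turned when 1 library was left out for P2ry12 (range −0.23 to 0.054), Adora1 (−0.18 to 0.0055) and Adora2a (−0.047 to 0.19). Adora2a was also at −0.024 without AAV-GFP replicate 2, and at −0.038 with AAV-NDNF replicate 3 left out. Further pathway genes and microglia markers were tried after seeing the data. Among these, P2rx5 turned to 0.068 without AAV-GFP replicate 3 (range −0.16 to 0.068), and Kcnk13 to −0.0065 without AAV-GFP replicate 1 (to 0.31). P2rx6 was −0.0044 in limma-voom and ranged from −0.075 (without AAV-GFP replicate 3) to 0.092, with −0.0049 when AAV-NDNF replicate 3 was left out. Csf1r passed with DESeq2 (adjusted p = 0.00413) and, with Cx3cr1 and Fcrls, in limma-voom.

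With the replicate number as a block, limma called 6 genes, all lower, and 1 of the 10 (Entpd1) had an unadjusted p under 0.05. Deviations of same-numbered libraries correlated at −0.09, 0.0485 and 0.0801, and not every library correlated best with its own number. With 3 libraries per group such values cannot show whether the numbers pair the libraries, and the labels state no pairing. The block left the mean difference of P2ry12 relative to microglia markers at 0.23 and of P2rx4 relative to P2ry12 at −0.14. Those differences ranged over 0.13 to 0.34 and −0.32 to −0.0011 without 1 library. Depth limits Adora3, Adora2a and Nt5e most, at 8 to 105 reads per library.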

Other observations

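One purinergic transcript too low to be tested stood out after its values were seen. Slc28a2, a sodium-coupled transporter that takes up purine nucleosides such as adenosine, had 17, 8 and 9 reads in the AAV-GFP libraries and 1, 0 and 0 in the AAV-NDNF libraries. Scaled for depth, that is 33.0 times more reads in the control group, with an exact 95% Poisson interval from 5.54 to 1342 that covers counting error only. In the authors' deposited table the log2 fold change is −4.91 with an unadjusted p of 0.00155 and an adjusted p of 0.227, so it does not pass there. Reads can be shared between near-identical copies, and Slc28a2b is listed at 4.5 normalized counts in AAV-NDNF replicate 2 and at 0 in the other 5 libraries.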
